A study of Mus musculus with 12 samples.

Results

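Microglia of the pallium, the part of the forebrain that gives rise to cortex and hippocampus, were compared with microglia of striatum and cerebellum. The 3 cortex and 3 hippocampus libraries formed the pallial side, 6 of the 12 libraries of the series, and the 3 striatum and 3 cerebellum libraries formed the other side, with each region weighted equally. All 12 libraries came from wild type male C57BL/6N mice at postnatal day 60 without treatment, and each held RNA of 3000 live sorted cells that were CD45 low, CD11b+ and TMEM119+, from tissue pooled over 3 to 5 mice. A library is thus a pool of mice behind a sorting gate, not a single animal. Whether the 3 pools of a region were separate sets of mice is not stated, so every p-value below measures only the spread of these samples, part of which may be technical. The division of the regions into these sides was made with region means of these data in view, those of Cd74 and Ccr1 among them. Differences between the sides are therefore descriptions with a standard error (SE), and the test between the sides, from which counts are given and genes are named, supports nothing. For Cd74 and Ccr1 the likeness of regions within a side was in view as well and is given with no test.

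Microglia are the resident macrophages of the brain. Differences between brain regions have been described for them on top of a shared program. That program includes the surface protein Tmem119, the purinergic receptor P2ry12, the fractalkine receptor Cx3cr1 and the receptor Csf1r, on which microglia depend for survival. A macrophage that presents antigen uses Cd74, the invariant chain that escorts MHC class II molecules to the endosome, and finds its way by chemokine receptors such as Ccr1. Growth of such a cell draws on ribosomes, mitochondria, glycolysis and sterol synthesis, whereas starvation and stress engage autophagy through the kinase Ulk1.

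Read counts were given for 23337 gene symbols, and 12217 genes with enough counts were compared. Total counts per library were 9394829 to 14833340 on the pallial side and 6479839 to 12696248 in striatum and cerebellum. At least 1 read was found for 12214 to 13614 genes in pallial libraries and for 10929 to 12876 genes in those of striatum and cerebellum. Striatum 2 stood apart. It had no count for 986 of the 10018 genes that averaged at least 50 counts, against 4 to 44 such genes in each of the other 11 libraries, and its correlation with them was 0.748 to 0.771 (Pearson's r of log2 CPM, read counts scaled to library size). Values without this library are given beside some of the results that rest on it, but not beside all of them. The defining microglia markers were at high levels on both sides. Tmem119 stood at 1975 ± 426 CPM in pallium and 1927 ± 762 in striatum and cerebellum (SD, n = 6 each), with a log2 difference of 0.04 ± 0.24 (SE). The log2 differences of P2ry12, Cx3cr1 and Csf1r were −0.17 ± 0.12, 0.08 ± 0.19 and −0.30 ± 0.10.

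Over all genes the differences centred near 0. The median log2 difference was 0.02, with 51.6% of genes above 0, and the quartiles were −0.25 and 0.27. The median SE of a single gene was 0.33. Quartiles of this size can come from the spread of the libraries alone, so they do not measure how alike the sides were. No gene reached an adjusted p under 0.05 (0 of 12217, 0% called, edgeR quasi-likelihood test with Benjamini-Hochberg adjustment, smallest adjusted p = 0.930). An unadjusted p under 0.05 was found for 569 genes (4.66%), of which 223 were higher in pallium (1.83%) and 346 lower (2.83%). The libraries of the sides did not overlap for 24 genes that were higher in pallium (0.196%) and 16 that were lower (0.131%), and without striatum 2 for 36 (0.295%) and 33 (0.270%). Nothing is read from these counts, since the division was chosen on the same libraries. The lack of calls does not show that the sides are alike.

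Cd74 headed the genes that were higher in pallium. It stood at 104, 127 and 136 CPM in cortex and 126, 62.0 and 95.1 in hippocampus, against 54.9, 18.4 and 45.6 in striatum and 39.9, 39.8 and 42.3 in cerebellum. Every pallial library was above every other one, with hippocampus 2 and striatum 1 nearest to each other. The side means differed 2.70-fold (108 ± 27.4 CPM in pallium, 40.2 ± 12.03 in striatum and cerebellum, SD, n = 6 each), and the log2 difference was 1.42 ± 0.26, or 1.25 without striatum 2. It was of similar size in every pairing of regions, at 1.62 for cortex over striatum, 1.59 for cortex over cerebellum, 1.25 for hippocampus over striatum and 1.21 for hippocampus over cerebellum. Hippocampus minus cortex was −0.37 ± 0.36 and cerebellum minus striatum 0.03 ± 0.37 on the log2 scale.

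The genes that work with Cd74 in class II presentation were not separated by library in this way. Of the 9 tested genes of the class II list, 6 were above 0, with a median log2 difference of 0.11 beside 0.02 over all genes, and Cd74 was the only member with libraries that did not overlap. Both pallial region means were above both others in 3 of the 9, Cd74 among them, and below both in 3. Over all genes this order was met by 23.4% and 20.3%. The median was 0.01 without cerebellum 3 and 0.29 without striatum 1. H2-Ab1, a class II beta chain, ranged from 6.54 to 17.3 CPM in pallium and from 6.35 to 14.2 in striatum and cerebellum. H2-DMa, which helps load peptide, ranged from 56.6 to 119 CPM in pallium and from 50.7 to 100.1 in striatum and cerebellum. Rfx5, a transcription factor of class II promoters, pointed the other way, at 14.76 to 28.1 CPM in pallium and 21.9 to 71.3 in striatum and cerebellum (log2 difference −1.01 ± 0.34, and −0.74 without striatum 2). Among the class I genes the median was 0.02, with 8 of 15 above 0 and 4 of 15 without striatum 2.

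Ccr1, a receptor for inflammatory chemokines (chr9:123962124-123968692, GRCm38), stood at 149.6, 194.5 and 135 CPM in cortex and 188, 137 and 175 in hippocampus, against 68.6, 29.7 and 60.2 in striatum and 102, 129 and 54.6 in cerebellum. Here too the sides did not overlap, but cortex 3 and cerebellum 2 were only a few CPM apart. The side means were 163 ± 26.2 CPM in pallium and 74.0 ± 35.7 in striatum and cerebellum (SD, n = 6 each), a 2.21-fold difference, and the log2 difference was 1.20 ± 0.25, or 1.06 without striatum 2. The cerebellum mean lay between those of striatum and pallium. The log2 difference to striatum was 1.59 for cortex and 1.66 for hippocampus, whereas to cerebellum it was 0.75 and 0.81. Cerebellum minus striatum was 0.85 ± 0.35 on the log2 scale. Of the 12 tested chemokine receptors 9 were above 0 (median 0.16), and 7 without striatum 2. The median was 0.09 without cortex 1 and 0.27 without striatum 3.

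Over the 12 libraries, the log2 CPM of Cd74 and Ccr1 correlated at r = 0.848, a value that contains the gap between the sides. Within pallium r was 0.410 and within striatum and cerebellum 0.626 (n = 6 libraries each). The genes most like Cd74 by this measure were Acbd6 (0.867), Myc (0.867), Ccl24 (0.853), Eno1 (0.852) and Ccr1. Those most like Ccr1 were Pa2g4 (0.921), Tmem167 (0.918), Nfs1 (0.916), Tcp1 (0.902) and Sqle (0.894). All of these points share the depth of their libraries, and striatum 2 is among them.

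**Figure D1:**
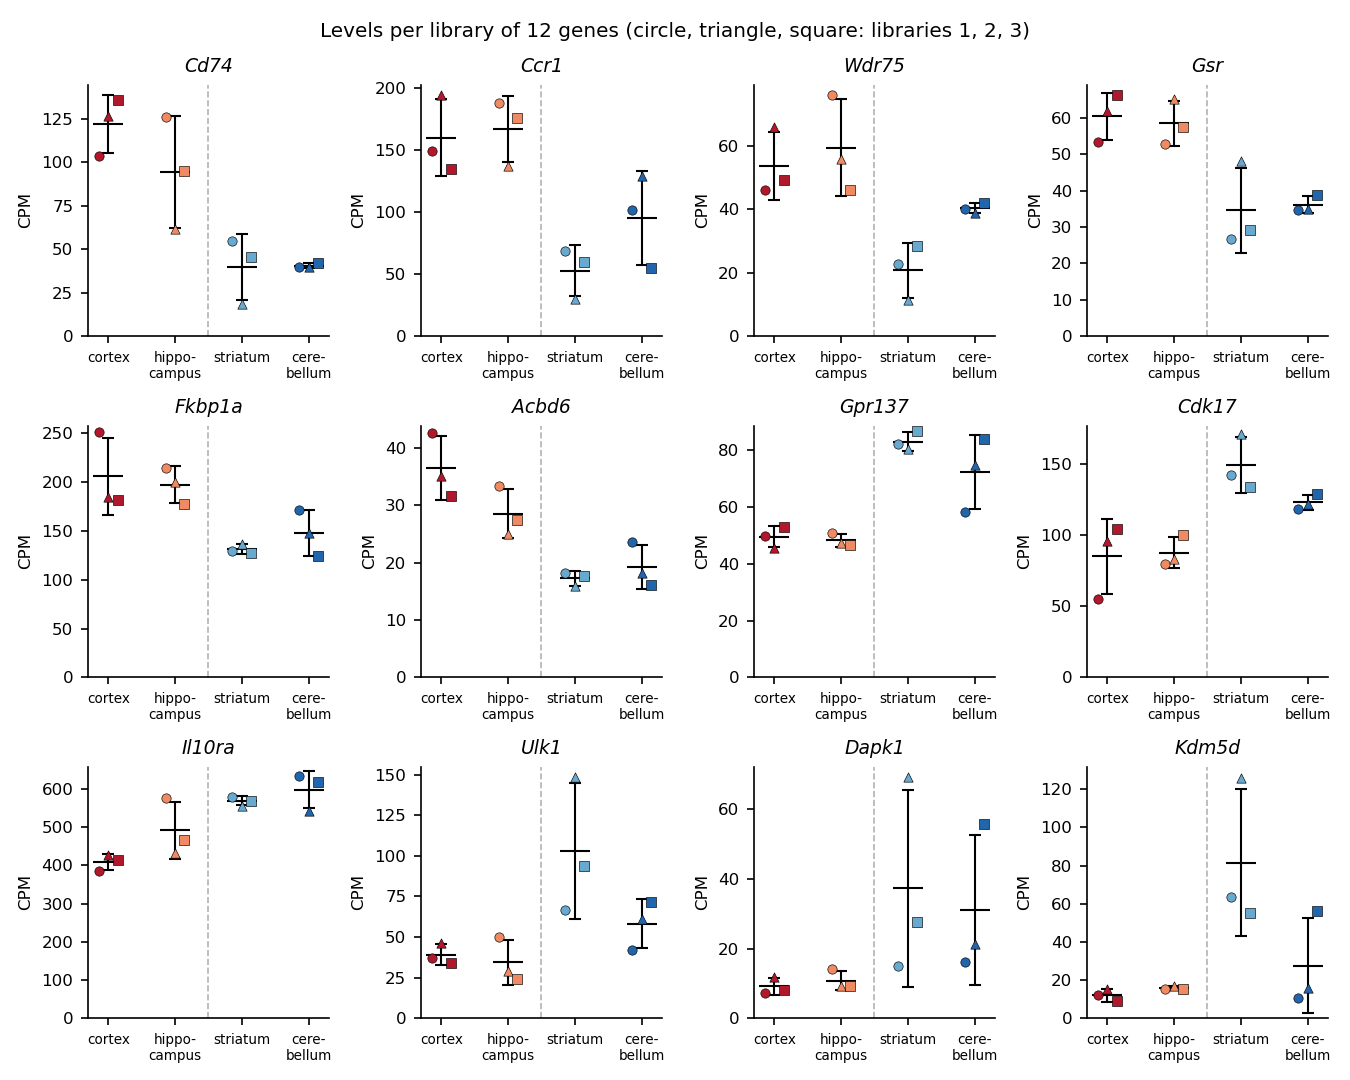
Levels in CPM (linear axes from 0) of 12 genes in each of the 12 libraries, with cortex and hippocampus left of the dashed line and striatum and cerebellum right of it. Circles, triangles and squares are libraries 1, 2 and 3 of a region, and bars give the region mean and SD (n = 3). Cd74 and Ccr1 are above every library of the other side in all 6 pallial libraries, whereas Kdm5d is high in 4 of the 6 libraries of striatum and cerebellum and at pallial levels in cerebellum 1 and 2.

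Among the other genes with the smallest p that were higher in pallium, 4 act in making or folding protein. Wdr75, a nucleolar protein of the small ribosomal subunit's assembly, stood at 46.1, 65.9 and 49.2 CPM in cortex and 76.1, 55.9 and 46.2 in hippocampus, against 22.8, 11.3 and 28.4 in striatum and 40.2, 38.9 and 41.9 in cerebellum. Its sides did not overlap, and the distance was larger to striatum (1.36 for cortex and 1.51 for hippocampus, log2) than to cerebellum (0.41 and 0.56). The prolyl isomerase gene Fkbp1a ranged from 177 to 252 CPM in pallium and from 124 to 172 in striatum and cerebellum, without overlap (log2 difference 0.53 ± 0.14). Gnb2l1, a scaffold protein bound to the ribosome, had a median of 211 CPM in pallium and 139 in striatum and cerebellum, and cerebellum 1 (194.6) was the only library of its side that reached the pallial range. Cct8, a subunit of the chaperonin that folds actin and tubulin, was at 320.3 ± 20.9 CPM in pallium and 242 ± 34.8 in striatum and cerebellum (SD, n = 6 each). Again cerebellum 1, at 294 CPM, alone reached the pallial range, which began at 289.

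The rest included enzymes of serine, glutathione and sterol metabolism. Phgdh, the first enzyme of serine synthesis, ranged from 265 to 402 CPM in pallium and from 153 to 328 in striatum and cerebellum. The cerebellum minus striatum difference was 0.59 ± 0.21 (log2, unadjusted p = 0.017) and did not pass the test (edgeR, adjusted p = 1). Shmt2, which passes the serine carbon on in mitochondria, ranged from 111 to 188 CPM in pallium and from 87.8 to 128 in striatum and cerebellum (log2 difference 0.54 ± 0.17). Gsr, glutathione reductase, stood at 53.3, 61.8 and 66.1 CPM in cortex and 52.9, 65.2 and 57.4 in hippocampus, against 26.6, 48.0 and 29.1 in striatum and 34.8, 34.8 and 38.8 in cerebellum. The sides did not overlap, and striatum 2 was the nearest library, so that the log2 difference of 0.75 ± 0.20 became 0.91 without it. Acbd6, an acyl-CoA binding protein, ranged from 24.9 to 42.5 CPM in pallium and from 15.8 to 23.5 in striatum and cerebellum. Pmp22, a small membrane protein best known from myelin, ranged from 100 to 207 CPM in pallium and from 48.3 to 115 in striatum and cerebellum, and the ranges overlapped.

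The 12 genes with the smallest p that were lower in pallium included the kinases Cdk17, Dapk1, Ulk1 and Abl1 and the membrane proteins Gpr137 and Il10ra. Gpr137, a membrane protein with a receptor-like fold, stood at 49.8, 45.6 and 53.1 CPM in cortex and 50.8, 47.3 and 46.6 in hippocampus, against 82.0, 80.3 and 86.6 in striatum and 58.2, 74.8 and 83.8 in cerebellum. The pallial libraries were tightly grouped and the sides did not overlap (48.9 ± 2.86 CPM in pallium, 77.6 ± 10.3 in striatum and cerebellum, SD, n = 6 each, log2 difference −0.66 ± 0.16). Cdk17, a kinase of the cyclin-dependent family, ranged from 55.2 to 104 CPM in pallium and from 119 to 171.5 in striatum and cerebellum, without overlap. Dapk1, a calmodulin-regulated kinase tied to cell death and autophagy, ranged from 7.29 to 14.0 CPM in pallium and from 15.2 to 69.2 in striatum and cerebellum. The gap between the sides of Dapk1 was about 1 CPM, and the spread on the second side came from striatum 2 (69.2) and cerebellum 3 (55.7). Its log2 difference was −1.77 ± 0.44, or −1.37 without striatum 2.

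Ulk1, the kinase that starts autophagy (chr5:110784488-110810097, GRCm38), stood at 37.1, 46.5 and 33.9 CPM in cortex and 50.2, 28.9 and 24.3 in hippocampus, against 66.6, 149 and 93.9 in striatum and 42.2, 60.9 and 71.7 in cerebellum. All striatum libraries and 2 of the 3 cerebellum libraries were above the pallium, while cerebellum 1 was within its range. The log2 difference was −1.08 ± 0.26, or −0.90 without striatum 2, and the cerebellum minus striatum difference was −0.82 ± 0.37 (unadjusted p = 0.044, edgeR adjusted p = 1). The autophagy list as a whole was not displaced to the same extent, with 11 of 26 genes above 0 and a median of −0.07, which was −0.01 without hippocampus 1 and −0.14 without cerebellum 2.

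Il10ra, through which microglia answer the anti-inflammatory cytokine IL-10, stood at 385, 426 and 413 CPM in cortex and 575, 433 and 465.5 in hippocampus, against 579.6, 556 and 569 in striatum and 632.5, 543 and 617 in cerebellum. The difference was small (−0.38 ± 0.10, log2), and hippocampus 1 was the pallial library that lay among those of the other side. Abl1, a tyrosine kinase, and Tha1, a threonine aldolase, had their lowest region mean in hippocampus. The hippocampus minus cortex difference was −0.60 ± 0.24 for Abl1 (unadjusted p = 0.027) and −0.87 ± 0.36 for Tha1 (unadjusted p = 0.029), and neither passed (edgeR adjusted p = 1 each). Col27a1, a fibrillar collagen chain, ranged from 17.0 to 53.3 CPM in pallium and from 49.8 to 183 in striatum and cerebellum. Abtb1 ranged from 70.7 to 109 CPM in pallium and from 107 to 144 in striatum and cerebellum. Ptpdc1, a phosphatase gene at low level, ranged from 0.836 to 6.65 CPM in pallium and from 10.9 to 48.0 in striatum and cerebellum (log2 difference −2.06 ± 0.53, or −1.64 without striatum 2).

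Kdm5d, a Y-linked histone demethylase, stood at 12, 15.6 and 8.88 CPM in cortex and 15.3, 16.8 and 15.3 in hippocampus, against 63.4, 126 and 55.3 in striatum and 10.7, 15.8 and 56.1 in cerebellum. Only 1 of the 3 cerebellum libraries was above the pallium, and the cerebellum minus striatum difference was −1.57 ± 0.56 on the log2 scale (unadjusted p = 0.016, edgeR adjusted p = 1).

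For each of the 12 genes with the smallest p in either direction, 24 in all, the order of region means held, with both pallial regions on the same side of both other regions, and the sign was kept in 12 of 12 fits that left out a library. The order of means alone was common, being met by 23.4% of all genes in the direction of higher in pallium and by 20.3% in the direction of lower. The libraries of 10 of the 24 did not overlap, with striatum 2 and without it. These genes were picked by the smallest p of this contrast in the same libraries. The order, the sign and the lack of overlap thus follow largely from the pick and support nothing. Within the pallium, 2 of the 24 (8.33%) had an unadjusted p under 0.05 between hippocampus and cortex, against 1.01% of all genes. Within the other side, 5 of the 24 (20.8%) did so between cerebellum and striatum, against 2.40% of all genes. A pick by small p favours genes of small estimated spread, so nothing is read from these shares.

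Tests over all genes between regions of the same side, and of the interaction, gave no calls. Between hippocampus and cortex 0 of 12217 genes passed (0% called), and 124 had an unadjusted p under 0.05 (1.01%), 82 of them higher in hippocampus (0.671%) and 42 lower (0.344%). Between cerebellum and striatum 0 passed (0%), and 293 had an unadjusted p under 0.05 (2.40%), 124 of them higher in cerebellum (1.01%) and 169 lower (1.38%). The test of whether the cortex minus striatum difference departed from the hippocampus minus cerebellum difference also called 0 (0%). Here 233 genes (1.91%) had an unadjusted p under 0.05, 81 above 0 (0.663%) and 152 below (1.24%). All were edgeR quasi-likelihood tests with Benjamini-Hochberg adjustment, and DESeq2 called 5, 3 and 4 genes in these tests and 13 between the sides. The genes with the smallest p between hippocampus and cortex were Adam9, a membrane metalloprotease (log2 0.79 ± 0.23), Pdha1 of the pyruvate dehydrogenase complex (0.66 ± 0.23) and F9 (1.61 ± 0.58), higher in hippocampus, and Prodh, proline dehydrogenase (−1.60 ± 0.50), the interferon regulator Irf3 (−0.66 ± 0.21) and Wbscr16 (−1.02 ± 0.37), lower. Between cerebellum and striatum they were Maml1 (2.82 ± 0.81), Ctnnbip1 (0.79 ± 0.24) and Aars2 (1.09 ± 0.36), higher in cerebellum, and Wwc2 (−2.05 ± 0.51), lower. Pkia, also named by the rule, had no count in cerebellum, against 83.1 CPM in striatum 2 and at most 1.58 in the other striatum libraries. Between the sides, the log2 difference of Wwc2 was 0.11 with all libraries and 0.51 without striatum 2. Its cerebellum minus striatum value may rest on that library too. Without 1 library, 199 (without striatum 2) to 681 (without striatum 3) genes had an unadjusted p under 0.05 between cerebellum and striatum.

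Pairs of regions that share no library allowed differences to be set side by side. Over the 9057 genes that averaged 10 CPM or more, the cortex minus striatum and hippocampus minus cerebellum differences correlated at r = 0.211 (Spearman's rho 0.227), with the same sign in 59.3% of genes. For cortex minus cerebellum and hippocampus minus striatum r was 0.279 (rho 0.301), with the same sign in 62.4%. Without striatum 2 the values of r were 0.249 and 0.316. These are correlations across genes, which are not independent of each other, and the genes share traits such as transcript length that move with both differences.

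**Figure D2:**
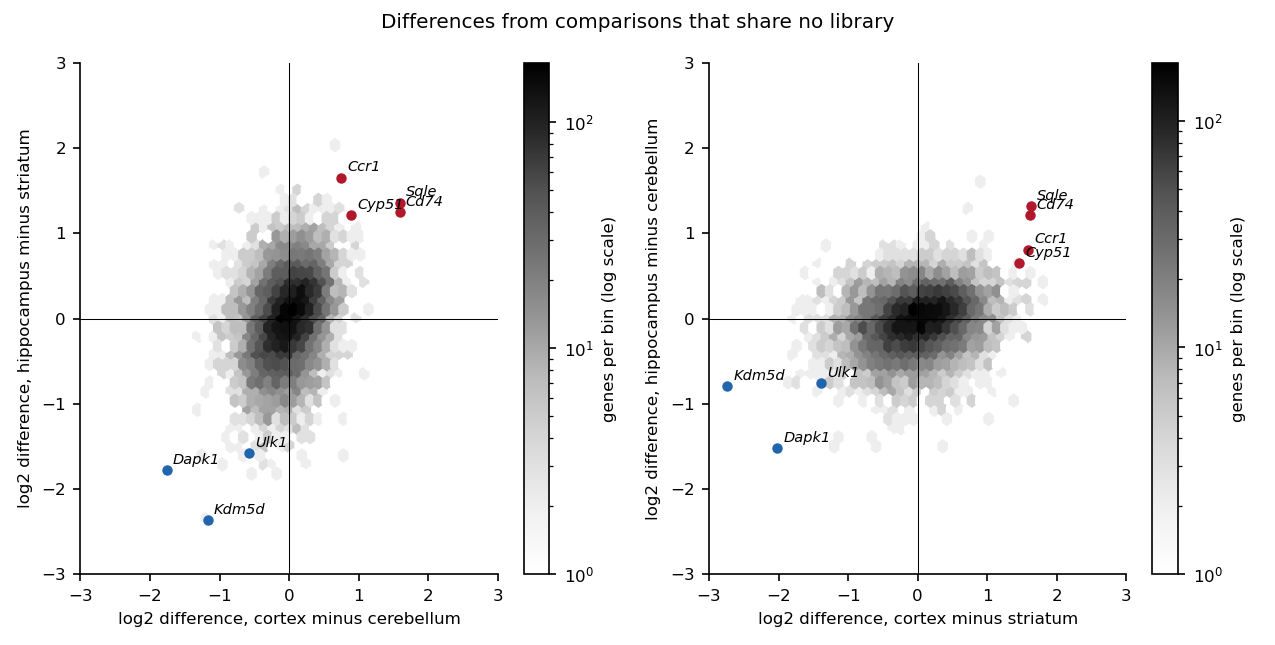
Log2 differences per gene from pairs of regions that share no library, for the 9057 genes that averaged 10 CPM or more, with shading for the number of genes per bin on a log scale. In the left panel cortex minus cerebellum is on the horizontal axis and hippocampus minus striatum on the vertical axis (r = 0.279), and in the right panel cortex minus striatum and hippocampus minus cerebellum (r = 0.211). Red points are genes higher in pallium and blue points genes lower in pallium, all of which lie in the quadrants of equal sign by their choice.

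Gene groups were described by their members' log2 differences, beside the median of 0.02 and the 51.6% above 0 (50.3% without striatum 2) of all tested genes. The list with the highest median among the functional lists was that of cholesterol synthesis, the pathway from acetyl-CoA over mevalonate, squalene and lanosterol that cells switch on through the transcription factor Srebf2 when sterol is short. Of its 23 tested genes 19 were above 0 (20 without striatum 2), and the median was 0.49 (0.48 without striatum 2). In 15 of the 23 both pallial regions had higher means than both other regions, an order met by 23.4% of all genes. Over all genes 0.327% had libraries that did not overlap, and none of the 23 genes of the list did, which says little in so few genes. The median was 0.51 for cortex over striatum, 0.50 for cortex over cerebellum, 0.56 for hippocampus over striatum and 0.42 for hippocampus over cerebellum, pairings that share libraries. It ranged from 0.32 without cortex 2 to 0.67 without cortex 3.

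By step of the pathway, Hmgcs1, which makes the mevalonate precursor, ranged from 44.7 to 114 CPM in pallium and from 38.0 to 63.2 in striatum and cerebellum (log2 difference 0.42). Fdps, which makes farnesyl diphosphate, ranged from 28.3 to 94.6 CPM in pallium and from 10.7 to 50.7 in striatum and cerebellum (1.00 ± 0.36, or 0.82 without striatum 2). Sqle, squalene epoxidase, stood at 96.3, 113 and 32.1 CPM in cortex and 87.0, 41.9 and 71.6 in hippocampus, against 49.6, 1.94 and 26.3 in striatum and 30.4, 38.8 and 11.0 in cerebellum (1.48, or 1.21 without striatum 2). Cortex 3 was the low pallial library for Sqle and for Fdps. Cyp51, which demethylates lanosterol, stood at 77.9, 168.5 and 72.2 CPM in cortex and 62.5, 64.5 and 142 in hippocampus, against 32.9, 24.9 and 58.3 in striatum and 64.1, 66.7 and 40.7 in cerebellum. Its ranges met at hippocampus 1 and 2 and cerebellum 1 and 2, and the log2 difference was 1.05 ± 0.32, or 0.94 without striatum 2. Among the regulators, Srebf2 had a log2 difference of −0.02 and Scap, its escort protein, one of −0.30 (−0.06 without striatum 2). Both were picked after their values were seen and are RNA levels, so nothing is read from them about the regulators as a whole.

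Because the enzymes of this pathway are known to share promoter elements, the promoters of 3 of them are shown, taken from RefSeq (GRCm38.p6) as 250 bases before to 50 after the start and written 5′ to 3′ on the gene's strand. Capitals mark a match on either strand to TCACNCCAC, 1 form of the sterol regulatory element, or to CCAAT, the box bound by the factor NF-Y. The promoters lie at chr5:4104648-4104947 (minus strand) for Cyp51, chr13:119690101-119690400 (plus) for Hmgcs1 and chr13:8885356-8885655 (plus) for Idi1, the isomerase of isopentenyl diphosphate.
Cyp51: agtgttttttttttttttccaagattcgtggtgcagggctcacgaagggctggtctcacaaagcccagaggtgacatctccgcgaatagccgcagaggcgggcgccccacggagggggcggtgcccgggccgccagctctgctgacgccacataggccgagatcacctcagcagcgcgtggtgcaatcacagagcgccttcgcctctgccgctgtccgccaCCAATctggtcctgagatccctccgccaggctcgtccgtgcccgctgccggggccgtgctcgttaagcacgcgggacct
Hmgcs1: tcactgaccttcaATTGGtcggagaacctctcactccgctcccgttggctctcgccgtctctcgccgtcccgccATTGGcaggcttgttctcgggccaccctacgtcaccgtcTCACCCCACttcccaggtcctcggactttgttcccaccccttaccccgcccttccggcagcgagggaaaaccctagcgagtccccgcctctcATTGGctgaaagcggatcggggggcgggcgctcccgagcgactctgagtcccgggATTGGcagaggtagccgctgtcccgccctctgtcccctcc
Idi1: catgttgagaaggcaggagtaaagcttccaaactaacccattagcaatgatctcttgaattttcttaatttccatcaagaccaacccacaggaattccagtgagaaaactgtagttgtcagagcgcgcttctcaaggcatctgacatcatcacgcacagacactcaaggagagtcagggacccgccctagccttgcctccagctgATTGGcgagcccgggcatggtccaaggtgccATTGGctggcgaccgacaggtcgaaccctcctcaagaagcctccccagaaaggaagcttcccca
A match to TCACNCCAC begins 137 bases before the start of Hmgcs1, the only one of these promoters with these letters. Other forms of the sterol element were not searched for, so their absence is not shown. For 17 of the 23 tested genes of the list a promoter was in the table, 21 promoters in all. CCAAT was found in 16 of these 21 (76.19%), against 37.408% of all 32851 promoters of the same length, and TCACNCCAC in 1 of 21 (4.762%), against 1.242%. The motifs do not overlap each other in the sequences shown, and a match is a description of letters only.

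**Figure D3:**
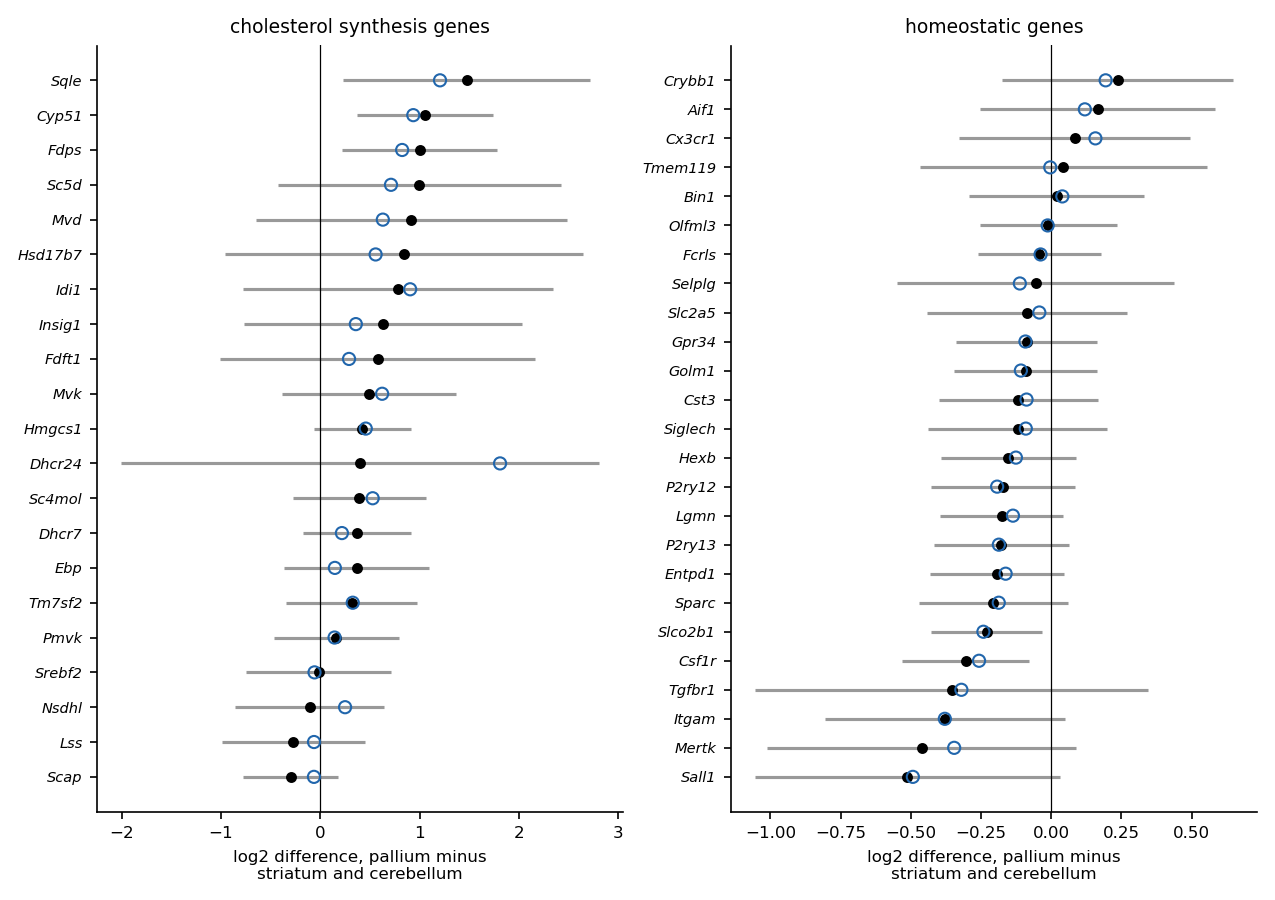
Log2 difference, pallium minus striatum and cerebellum, of 21 genes of the cholesterol synthesis list (left) and 25 of the homeostatic microglia list (right). Black points and grey bars are the value and its 95% interval from all 12 libraries, and open circles are values without striatum 2. In the left panel 17 of 21 points are above 0, and in the right panel 5 of 25.

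Genes of protein synthesis and breakdown and of energy metabolism stood together above 0. All 44 tested ribosomal protein genes were above 0 (median 0.31, range 0.11 to 0.69), among them Rplp0 of the ribosomal stalk (0.43 ± 0.18) and Rpl5 (0.44 ± 0.20). Their reads can be shared with near-identical pseudogenes, so single values are uncertain. All 30 proteasome genes were above 0 (median 0.29) and 29 without striatum 2, with Psmb4 of the core at 0.46 ± 0.20. Of 41 nuclear genes of oxidative phosphorylation 39 were above 0 (median 0.27), with Uqcrc2 of complex III at 0.57 ± 0.21 and Cox5a of complex IV at 0.38 ± 0.18. Of 22 glycolysis genes 17 were above 0 (median 0.31), with the enzymes Tpi1 at 0.46 ± 0.16 and Pkm2 at 0.38 ± 0.13. Eno1, an enolase, ranged from 24.5 to 29.3 CPM in pallium and from 11.96 to 22.6 in striatum and cerebellum without overlap, and was the only glycolysis gene of which this was true with all libraries. None of the ribosomal, proteasome or oxidative phosphorylation genes had libraries that did not overlap. Without striatum 2 this was true of 1 proteasome gene. Over all genes the libraries did not overlap for 0.327%, or 0.565% without striatum 2, so none in lists of this size says little.

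The list values per library show how uneven this was. For ribosomal protein genes, the mean log2 deviation from the genes' own means was 0.75, 0.16 and −0.15 in cortex and −0.04, 0.43 and −0.20 in hippocampus, against −0.23, −0.32 and −0.15 in striatum and 0.24, −0.04 and −0.44 in cerebellum. Cortex 1, hippocampus 2 and cerebellum 1 were the high libraries of their regions, in ribosomal, proteasome and oxidative phosphorylation lists alike, and the sides overlapped. Over the 12 fits that each left out a library, the medians of these 3 lists were lowest without cortex 1 (0.18, 0.18 and 0.17) and highest without cerebellum 1 (0.41, 0.39 and 0.40). The cholesterol list had another order, highest in cortex 2 (0.92) and lowest in striatum 2 (−1.95).

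**Figure D4:**
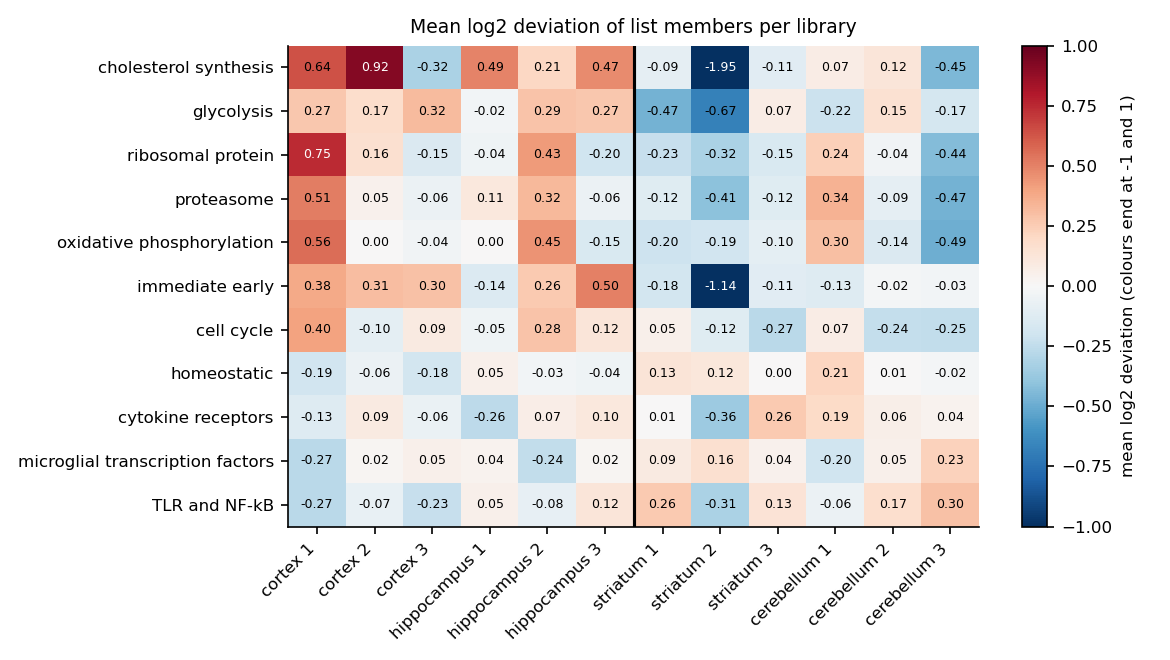
Mean log2 deviation of the members of 11 gene lists in each library (columns) from each gene's mean over the 12 libraries, with pallial libraries left of the black line and colours ending at −1 and 1. Ribosomal, proteasome and oxidative phosphorylation genes are highest in cortex 1, hippocampus 2 and cerebellum 1 within their regions. Striatum 2 is low in most lists, and over all tested genes its mean deviation was −0.86, against −0.01 to 0.16 in the other 11 libraries.

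Other lists of growth and activation also lay above 0. Of 27 cell cycle genes 23 were above 0 (median 0.22), with the replication genes Mcm3 at 0.54 ± 0.18 and Pcna at 0.50 ± 0.19, and the median was 0.12 without cortex 1 and 0.35 without striatum 1. Of 32 ribosome biogenesis genes 26 were above 0 (median 0.14), Bop1 of the large subunit's assembly at 0.55 ± 0.17. Of 20 immediate early genes, which neurons and glia induce within minutes of a stimulus, 16 were above 0 (median 0.28). Ier3 stood at 0.93 ± 0.39 and Myc at 0.50 ± 0.22, or 0.36 without striatum 2. Of 17 chemokine and cytokine ligands 12 were above 0 (median 0.13, and 0.01 without striatum 1). Ccl12 ranged from 121 to 183 CPM in pallium and from 81.5 to 143 in striatum and cerebellum. Ccl2 ranged from 11.9 to 32.1 CPM in pallium and from 0 (striatum 2) to 14.3 in striatum and cerebellum.

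Genes of microglial identity and sensing lay slightly below 0. Of 26 homeostatic genes 21 were below 0 (median −0.14), and the median was −0.05 without cerebellum 1. Csf1r stood at 5691, 7173 and 7918 CPM in cortex and 8202, 7290 and 7972 in hippocampus, against 9637, 10740 and 8284 in striatum and 8496, 7767 and 9680 in cerebellum. Most pallial values of Csf1r were lower, but the ranges overlapped between 7767 and 8202 CPM. Slco2b1, an organic anion transporter, was the homeostatic gene with libraries that did not overlap, at 1295 to 1741 CPM in pallium and 1755 to 1918 in striatum and cerebellum. Sall1, the transcription factor that keeps microglia apart from other macrophages, had a log2 difference of −0.51, with 302 to 668 CPM in pallium and 392.5 to 939.7 in striatum and cerebellum. Of 22 microglial transcription factors 15 were below 0 (median −0.15, −0.08 without cerebellum 3 and −0.24 without cortex 2), with Runx1 at −0.54 ± 0.22.

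Of 26 genes of Toll-like receptors and NF-kB 19 were below 0 (median −0.22). Nfkb2, which encodes a subunit, stood at −0.78 ± 0.28, or −0.60 without striatum 2. Tlr3, a sensor of double-stranded RNA, stood at −0.61 ± 0.26. Of 22 cytokine receptors 17 were below 0 (median −0.15), and of 11 purinergic genes 8 (median −0.17, and −0.03 without cortex 3), where Ada, adenosine deaminase, pointed the other way at 1.05 ± 0.41. The purinergic receptor P2rx7 had a log2 difference of −0.32 ± 0.16. Complement genes had a median of −0.08 (4 of 14 above 0), which was −0.0013 without cerebellum 1 and −0.12 without cerebellum 3, and the anaphylatoxin receptor C3ar1 stood at 0.40 ± 0.18. Clearance receptors had a median of −0.08 (5 of 18 above 0), −0.05 without striatum 1 and −0.12 without cortex 2. Fc gamma receptors had a median of −0.06 (3 of 8 above 0), which turned to 0.04 without cerebellum 1. The interferon list had a median of −0.07 (9 of 25 above 0), with Stat2 at −0.53 ± 0.24, or −0.35 without striatum 2. That median turned to 0.09 without cerebellum 1, and it was −0.12 without striatum 2 and −0.18 without cortex 3.

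Disease-associated genes, which microglia turn on near plaques and dying cells, had 20 of 28 above 0 and a median of 0.08, but the sign was kept in only 8 of 12 fits that left out a library, and the median ran from −0.15 without cortex 3 to 0.28 without cerebellum 3. Clec7a, a lectin of that list, stood at 2.74, 1.17 and 51.7 CPM in cortex and 21.2, 60.3 and 29.5 in hippocampus, against 6.27, 2.75 and 11.96 in striatum and 4.63, 4.14 and 18.3 in cerebellum. The pallial values of Clec7a were thus low in cortex 1 and 2 and high in the other 4 libraries, and its log2 difference of 1.71 ± 0.82 was 0.09 without cortex 3. Medians were −0.02 for the lysosome (14 of 33 above 0), −0.03 for TGF-beta and SMAD genes (6 of 13), −0.04 for PRC2 and H3K27 demethylase genes (6 of 13), 0.01 for iron handling (7 of 13), 0.02 for chaperones of the endoplasmic reticulum (12 of 23) and −0.14 for cholesterol efflux (6 of 16). Each of these 6 medians changed sign when at least 1 of the 12 libraries was left out in turn, cholesterol efflux to 0.05 without cerebellum 3. The clock list had a median of −0.13 (7 of 16 above 0), which turned to 0.04 without cerebellum 2 and was −0.36 without striatum 2. The 4 Y-linked genes had log2 differences of −1.77 (Kdm5d, −1.54 without striatum 2), −0.61 (the helicase gene Ddx3y), −0.36 (Eif2s3y) and 0.06 (Uty, −0.23 without striatum 2).

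**Figure D5:**
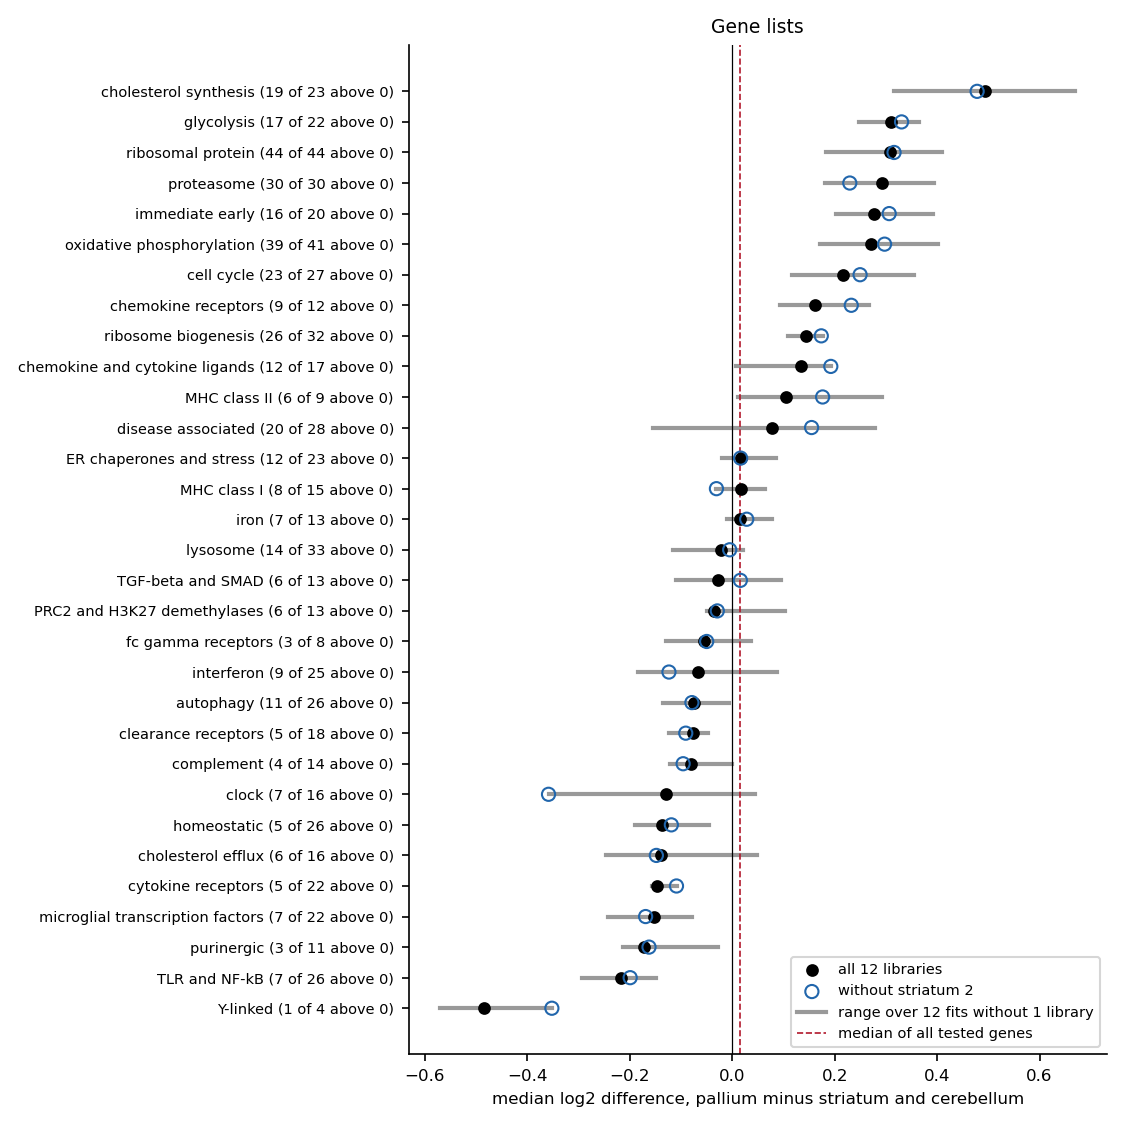
Median log2 difference, pallium minus striatum and cerebellum, of the tested members of each of 31 gene lists. Black points use all 12 libraries, open circles leave out striatum 2, grey bars span the 12 fits that each leave out 1 library, and the dashed line is the median of all tested genes, 0.02. Cholesterol synthesis is highest at 0.49, ribosomal protein, proteasome, glycolysis and oxidative phosphorylation lie between 0.27 and 0.31, and the Toll-like receptor and NF-kB list is at −0.22.

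Transcript length moved with the differences. In 5 groups of equal size from the shortest to the longest transcripts, the median log2 difference was 0.12, 0.10, 0.02, −0.04 and −0.14, and without striatum 2 it was 0.10, 0.08, 0.01, −0.05 and −0.14. Ribosomal protein, proteasome and oxidative phosphorylation transcripts are short, with median lengths of 809, 1272 and 730.5 bases against 2091 for all genes with a length. After a trend on length was removed, the medians were 0.21 for ribosomal protein, 0.20 for the proteasome, 0.19 for oxidative phosphorylation and 0.23 for glycolysis, while cholesterol synthesis stood at 0.50, homeostatic genes at −0.18 and Toll-like receptor and NF-kB genes at −0.18. What lies behind the length trend was not tested.

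Markers of other cells were summed per library, since in bulk RNA fewer cells of a type and less RNA per cell cannot be told apart. Border macrophage markers summed to 543 to 1347 CPM in pallium and 515 to 1035 in striatum and cerebellum, with 11 of 13 tested markers above 0 (median log2 difference 0.47, and 0.05 without cortex 3). Mrc1, the mannose receptor that led this sum, ranged from 253 to 712 CPM in pallium and from 229 to 651 in striatum and cerebellum. Border macrophages also present antigen through class II, and their part in the Cd74 values was not tested.

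Choroid plexus and ependymal markers summed to 0.316 to 117 CPM in pallium and 0.579 to 876 in striatum and cerebellum, led by Ttr with 579.8 CPM in striatum 2 and 203 in cerebellum 3, and without striatum 2 the upper end was 298. Of the 7 tested choroid and ependymal markers 6 were below 0 (median log2 difference −2.59, or −1.35 without striatum 2). Erythrocyte markers summed to 12.5 to 149.6 CPM in pallium and 0.313 to 77.0 in striatum and cerebellum (means 86.06 and 21.09). All 3 tested erythrocyte markers were above 0 (median log2 difference 2.43, or 2.165 without striatum 2). Neuronal markers stood at 15.0 to 48.8 CPM in pallium and 11.6 to 45.8 in striatum and cerebellum. Defining markers of the regions' own neurons had no count in any library: Emx1 of pallial neurons, Drd2 and Drd1a of striatal neurons, and Cbln1 and Gabra6 of cerebellar neurons. The whole lists summed to 2.61 to 15.1 CPM in pallium and 4.37 to 22.9 in striatum and cerebellum for pallial neurons. For striatal neurons they summed to 24.4 to 44.6 CPM in pallium and 23.6 to 71.1 in striatum and cerebellum, and for cerebellar neurons to 0.466 to 2.01 CPM in pallium and 0 to 1.42 in striatum and cerebellum. Sums in pallium, against those in striatum and cerebellum, were 1315 to 1601 CPM against 985 to 1825 for oligodendrocytes, 207.5 to 367 against 282 to 374 for astrocytes and 33.6 to 83.6 against 43.6 to 86.8 for Bergmann glia. In the same way pallium had 2.93 to 43.1 CPM against 5.70 to 35.7 in striatum and cerebellum for monocytes and neutrophils, 103 to 205 against 92.5 to 247 for lymphocytes (mostly Cd79b), 19.95 to 46.4 against 18.8 to 44.8 for vessels, and 0.316 to 8.93 against 0.0781 to 11.5 for oligodendrocyte precursors. All of these sums overlapped between the sides. Their part in the differences of other genes was not tested.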

How the data were processed

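Bulk RNA-seq was made from sorted microglia of 4 brain regions, 3 libraries each, with the Smart-Seq v4 and Nextera XT kits, per the labels' protocols. The authors deposited whole-number read counts per gene symbol, without normalization. The submitters' processing notes name mm10 as the build and list as tools HTSeq, Picard, STAR (2.5.3a) and Trim Galore (0.4.3). The annotation and strand setting were not given, and the kit does not mark strand, so overlapping antisense genes may share reads. A spreadsheet had turned 25 symbols into dates.

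The division of the regions and the gene lists were chosen with earlier results of these data known. Counts were fitted in R 4.3.3 with edgeR 4.0.16: filterByExpr by region (minimum count 10, minimum total 15), TMM scaling, a mean per region over all 12 libraries, and the robust quasi-likelihood test, with Benjamini-Hochberg adjustment over 12217 genes and a threshold of 0.05. Levels are CPM with TMM-scaled library sizes. Correlations and list values used log2 CPM with a prior count of 2. At a count of 0, up to 3 counts remain possible (0.202 to 0.463 CPM per library). This covers counting error only, since no molecular identifiers were used. Libraries of a region differed by far more than sampling noise (chi-square per degree of freedom 33.8 to 97.5 in 12 pairs).

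Genes were named by rule: the 12 with the smallest p in each direction and a mean of at least 10 CPM on the higher side (ribosomal protein genes, RIKEN clones and predicted genes left out), 2 per functional list, 3 per direction in the tests within a side, 5 by likeness to Cd74 and to Ccr1, and Cd74, Ccr1, Tmem119, P2ry12, Cx3cr1 and Csf1r always. Others were chosen after their values were seen, among them Sqle, Hmgcs1, Scap, Srebf2, Eno1, Slco2b1, Sall1, H2-Ab1, H2-DMa, Uty and Eif2s3y. Some genes that the rule or the lists hold are not reported here. Coordinates and transcript lengths came from the GENCODE annotation of GRCm38, the assembly of mm10, which matched 97.712% of symbols. The 31 functional lists and 14 lists of other cells were described without a set test. Alternatives were other size factors, no filter, limma-voom 3.58.1, DESeq2 1.42.0, a replicate block, a mean per side only and leaving out each library. The fits were tested on simulated data. Counts were drawn independently for each gene and library, with no deviation shared by the genes of a library and no library like striatum 2. All changed genes averaged at least 10 CPM. In this setting the test between the sides recovered 6% of genes changed 1.5-fold, 38% at 2-fold, 79.3% at 4-fold and 95.3% at 8-fold. The rates need not hold in the real libraries.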

Additional observations from a re-analysis of the deposited data

Results flagged for a closer look

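Among the 174 groups of 6 libraries formed by 87 named genes and the sides, 14 (8.05%) held a library whose log2 CPM lay far from the rest of its side, that is, whose gap to the nearest library, as a share of the side's whole range, was above Dixon's critical value at the 95% level. Chance flags about 1 in 20 such groups. Striatum 2 was the library in 7 of the 14.

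On the striatum and cerebellum side, striatum 2 was low for Cd74 (18.4 CPM, gap 0.706 of the range), Pmp22 (48.3 CPM, 0.643) and Ccl2 (no count, 0.744). It was high for Ptpdc1 (48.0 CPM, 0.817), Neu1, a lysosomal sialidase (274 CPM, 0.731), Lpcat3, which remodels phospholipids (361 CPM, 0.816) and Pkia (83.1 CPM, 0.631). With all libraries the fitted log2 difference of Pkia was 2.40, although its side means had the opposite order (3.08 CPM in pallium, 14.2 in striatum and cerebellum). The fitted difference was 4.70 without striatum 2. Since the order of the means rested on that library, no direction is given for Pkia. Cerebellum 1 was high for Acbd6 (23.5 CPM, 0.646) and low for Gpr137 (58.2 CPM, 0.630).

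On the pallial side, cortex 1 was high for Gnb2l1 (319 CPM, 0.787) and low for Csf1r (5691 CPM, 0.633) and Ptpdc1 (0.836 CPM, 0.727). Hippocampus 2 was low for Stat2 (37.7 CPM, 0.652). Hippocampus 3 was the only pallial library without a count for Pkia (gap 0.637).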

How the results depend on the processing

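With DESeq2 the count of genes past the threshold was 13 for pallium against striatum and cerebellum (3 higher in pallium, 10 lower, Cd74 and Ccr1 among them), 5 for hippocampus against cortex (Cd24a, Ctf1, Cyfip2 and Fbxl8 among them), 3 for cerebellum against striatum (Mum1l1 and Ppp2r2c among them) and 4 for the interaction (Cd24a, Ctf1, Mum1l1, Ppp2r2c), where edgeR called 0 in each. These genes are named because the counts are small, each out of 12217 genes fitted. Cd74 and Ccr1 were in view when the division was made, so their calls between the sides support nothing. With DESeq2, Cd24a, Ctf1, Cyfip2 and Fbxl8 were called both between the sides and between hippocampus and cortex. With other size factors, without a filter on low counts, with limma-voom and without each library in turn the counts were 0 in all 4 tests, and with a mean per side only the first was 0. Without 1 library, 396 (without cerebellum 3) to 1031 (without cerebellum 1) genes had an unadjusted p under 0.05 between the sides. The labels do not say that replicate numbers pair libraries. Over 18 pairs of same-numbered libraries the correlation of deviations was −0.12 to 0.287, with a median of 0.026. It was over 0.1 in 4 pairs, the 3 of cortex with cerebellum among them, and 9 of 12 libraries correlated best with their own number, a hint of pairing from the data, not the design. How many would do so without pairing was not worked out. With a replicate block the 4 counts were 0, and 641 genes had an unadjusted p under 0.05 between the sides. The median log2 difference of all genes lay between −0.002 and 0.06 over these settings. Alternatives on list counts without striatum 2, the correlation of pairs without it and the length trend were added after seeing the data. Depth limits what can be said of genes at a few counts.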
